A study of Mus musculus with 8 samples.

Results

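The core circadian clock of brown adipose tissue was read from 10 genes, Clock, Arntl, Per1, Per2, Per3, Cry1, Cry2, Nr1d1, Nr1d2 and Dbp, taken by symbol from a table of 54532 genes. Each symbol matched 1 row, and all 10 genes passed the filter of a mean of at least 0.5 FPKM (fragments per kilobase of gene, scaled for depth, so a level per gene length). The 8 mouse libraries fell into 4 from mice whose brown adipocytes had lost Ogt by a knockout specific to those cells (OGTBKO) and 4 from wild-type mice (WT). The labels carry 1 growth protocol for both groups: mice were kept at 23 °C on standard chow, were induced after 8 weeks and gave tissue 2 months later. The spelling of the inducing agent is unclear, and no label states separately that WT mice received it. Neither the promoter that drives the recombinase nor the part of Ogt deleted is stated in the sources used here. The tissue was taken whole after the white fat around it was removed, although the cell type label reads adipocytes. The time of day at which each animal was killed is likewise not stated, and the levels of clock genes change over the day, so time of collection and group cannot be told apart.

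In mammals the clock runs as a feedback loop of transcription. CLOCK and ARNTL (BMAL1) bind DNA as a pair and switch on the Per, Cry, Nr1d and Dbp genes, the PER and CRY proteins block that pair, and the nuclear receptors NR1D1 and NR1D2 (REV-ERB alpha and beta) repress Arntl through elements that the ROR receptors share with them. Arntl is therefore high when Nr1d1, Dbp and the Per genes are low, and the reverse, and in mouse brown fat NR1D1 is known to restrain Ucp1 and heat production over the day. OGT attaches O-GlcNAc to intracellular proteins, the clock proteins PER2 and ARNTL among them.

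The promoters of the members were searched for the elements that clock factors are known to bind. The RefSeq promoter table (GRCm38.p6, 250 bases before to 50 after a start) held 9 of the 10 members with 13 starts. Both strands were searched for the E-box CACGTG (in 7.15% of all 32851 promoters of that length), the E-prime box CACGTT (4.68%), the D-box TTATGNAA (3.38%), the ROR element TAGGTCA (2.61%) and the CRE TGACGTCA (1.79%). The Per1 and Cry1 promoters held an E-box, the Cry1, Cry2 and Nr1d1 promoters an E-prime box, and the Per1 and Per3 promoters a D-box. Only the second Arntl start had a ROR element, no member start had a CRE, and the windows of Clock, Nr1d2 and Dbp held none of these letters. The sequences below are those of a called gene (Per1), of the gene with the most negative correlation with Arntl (Per3), of the cryptochrome with both boxes (Cry1), of the member with the highest mean in both groups (Nr1d1), and of the ROR element of Arntl. They are printed 5′ to 3′ on the strand of the gene, with the motifs in capitals.
Per1, 250 bases before the first start, chr11:69098699-69098948, plus strand: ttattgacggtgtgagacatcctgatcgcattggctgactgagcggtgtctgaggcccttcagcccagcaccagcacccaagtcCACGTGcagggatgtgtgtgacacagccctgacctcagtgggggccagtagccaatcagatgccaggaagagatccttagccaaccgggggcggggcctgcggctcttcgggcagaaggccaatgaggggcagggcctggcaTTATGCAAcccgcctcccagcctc
Per3, 250 bases before the start, chr4:151044666-151044915, minus strand: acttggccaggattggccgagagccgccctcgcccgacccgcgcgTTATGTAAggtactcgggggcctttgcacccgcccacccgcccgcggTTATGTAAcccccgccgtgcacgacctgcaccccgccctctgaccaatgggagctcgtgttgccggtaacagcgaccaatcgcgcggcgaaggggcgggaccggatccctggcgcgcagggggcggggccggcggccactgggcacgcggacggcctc
Cry1, 250 bases before the start, chr10:85185055-85185304, minus strand: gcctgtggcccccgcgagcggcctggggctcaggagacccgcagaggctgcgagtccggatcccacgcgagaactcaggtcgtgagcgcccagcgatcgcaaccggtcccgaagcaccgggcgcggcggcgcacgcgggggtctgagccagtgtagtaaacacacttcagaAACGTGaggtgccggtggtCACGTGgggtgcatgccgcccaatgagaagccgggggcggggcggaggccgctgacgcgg
Nr1d1, 250 bases before the start, chr11:98775378-98775627, minus strand: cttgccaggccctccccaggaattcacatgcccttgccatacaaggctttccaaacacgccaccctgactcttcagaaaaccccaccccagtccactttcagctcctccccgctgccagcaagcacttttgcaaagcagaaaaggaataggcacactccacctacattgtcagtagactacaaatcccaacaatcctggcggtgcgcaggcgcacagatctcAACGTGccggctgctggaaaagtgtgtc
Arntl, 30 bases around the ROR element, chr7:113207530-113207559, plus strand: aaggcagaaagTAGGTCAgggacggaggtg
In Per1 the E-box began 166 bases and the D-box 24 bases before the start. The D-boxes of Per3 began 205 and 158 bases before its start. In Cry1 the E-prime box began 79 bases and the E-box 60 bases before the start, and in Nr1d1 the E-prime box began 28 bases before it. The element of Arntl began 30 bases after the start. A match describes these letters, and binding was not measured here.

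Reads in genes numbered 13393962 to 15897920 per library. Ogt, the gene knocked out, measured 10.7, 14.5, 12.8 and 11.8 FPKM in OGTBKO 1 to 4, against 33.1, 24.7, 23.9 and 22.5 FPKM in WT 1 to 4 (log2 change -1.03 ± 0.14 SE, adjusted p = 0.00511 by limma). Brown adipocyte markers (7 genes, Ucp1 among them) summed to between 3337 and 3833 FPKM in OGTBKO libraries and between 3291 and 4783 FPKM in WT libraries. Of these 7 only Ucp1, the uncoupling protein of brown fat, passed the test: it averaged 1006 ± 79.3 FPKM in OGTBKO and 2051 ± 485.3 FPKM in WT without overlap (SD, n = 4 each; log2 change -0.999 ± 0.18, adjusted p = 0.0113 by limma, and 0.0838 without the 3 libraries with muscle transcripts named next). Cox8b and Elovl3 had higher means in OGTBKO (log2 changes of 0.64 ± 0.23 and 1.75 ± 0.68) that did not pass (adjusted p = 0.0838 and 0.111 by limma). The part of these differences in the levels of the clock genes was not tested. Skeletal muscle markers (5 genes) summed to 1186 FPKM in OGTBKO 1, 400.2 FPKM in WT 1 and 31.4 FPKM in WT 4, and to between 0.383 and 5.19 FPKM in the other libraries. White adipocyte markers summed to between 134.7 and 185.0 FPKM in OGTBKO and between 46.2 and 116.3 FPKM in WT, without overlap. Of these 5 genes Lep passed the test and was higher, Nnat, Retn and Hoxc8 did not pass, and Hoxc9 was at 0 in 3 libraries of each group. The part of white fat in the levels of the clock genes was not tested. Samples are numbered in the labels with no word on whether they are separate animals, so the spread behind each p-value may be partly technical. In whole tissue, fewer cells of a type and less RNA per cell cannot be told apart.

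Among the 10 members, Clock and Per1 fell in OGTBKO tissue, and none rose. Clock and Per1 made up 2 of the 10 members at an adjusted p under 0.05 (limma on log2(FPKM + 0.5), adjusted over all genes), against 15.6% of the 13171 genes tested (8.11% higher and 7.46% lower). Over all genes 1068 were higher and 982 lower, a split that became 980 and 249 with library totals as the FPKM denominator, where the median change was 0.09. The values of the groups did not overlap for 3 members, Clock, Per1 and Per2, against 22.5% of all genes tested. Both shares lie near those of all genes. The median log2 change of the members was -0.22, with 5 positive and 5 negative, against -0.00 over all genes.

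**Figure D1:**
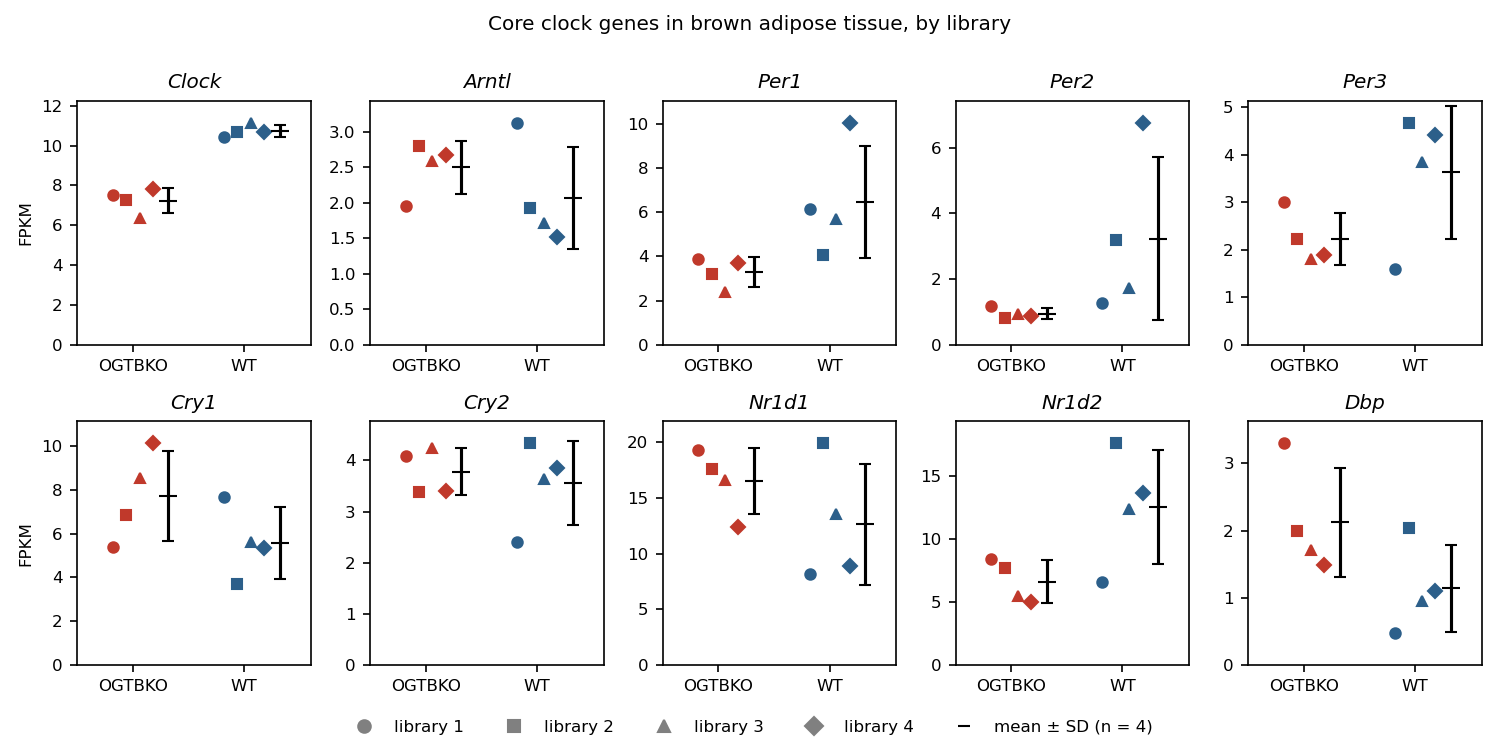
FPKM (vertical axis, from 0) of each clock gene in the 4 OGTBKO libraries (left, red) and the 4 WT libraries (right, blue), with the marker shape giving the library number and black bars the mean ± SD. Clock separates without overlap and with little spread, and Per2 lies between 0.816 and 1.18 FPKM in OGTBKO and between 1.26 and 6.75 FPKM in WT. WT 1 is the highest or lowest WT library in every panel but that of Per1, by a small margin for Clock and Nr1d1.

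Clock, the DNA-binding partner of ARNTL in the positive limb, fell in OGTBKO tissue with no overlap between the groups. Clock (ENSMUSG00000029238, chromosome 5, 76209868 to 76304792, minus strand, mm10) measured 7.50, 7.27, 6.35 and 7.84 FPKM in OGTBKO 1 to 4, against 10.4, 10.7, 11.1 and 10.7 FPKM in WT 1 to 4. The groups were apart by more than the range of either, with means of 7.24 ± 0.638 FPKM in OGTBKO and 10.7 ± 0.293 FPKM in WT (SD, n = 4 each) and a ratio of means of 0.675. The log2 change was -0.54 ± 0.09 (95% interval -0.75 to -0.33, adjusted p = 0.00933 by limma). Transcripts of Clock are AT-rich: their GC content of 40.9% lies in the 3291 genes lowest in GC (18.1% to 44.7%), of which 17.7% were lower in OGTBKO and 2.55% were higher. With a trend on GC content and length removed from each library, the log2 change of Clock was -0.23 (adjusted p = 0.0929 by limma, with 10.5% of all genes called), and without the 3 libraries with muscle transcripts it was -0.58 (adjusted p = 0.0532 by limma, with 7.12% of all genes called).

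Arntl, the other gene of the positive limb, did not pass the test. Arntl (ENSMUSG00000055116, chromosome 7, 113207465 to 113314126, plus strand) measured 1.96, 2.80, 2.60 and 2.67 FPKM in OGTBKO 1 to 4, against 3.13, 1.93, 1.72 and 1.51 FPKM in WT 1 to 4. OGTBKO 2, 3 and 4 lay above WT 2, 3 and 4, whereas WT 1 was the highest library of all and OGTBKO 1 lay among the WT values. In limma's fit the log2 change was 0.25 ± 0.19 (95% interval -0.17 to 0.68, adjusted p = 0.386 by limma). The level of Clock relative to Arntl was 3.83, 2.60, 2.45 and 2.93 in OGTBKO 1 to 4, against 3.34, 5.53, 6.47 and 7.07 in WT 1 to 4, so that WT 1 alone overlapped the OGTBKO range.

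The 3 Period genes, which encode the repressor proteins that pair with the cryptochromes, all had lower means in OGTBKO, and Per1 passed the test. Per1 (ENSMUSG00000020893, chromosome 11, 69095217 to 69109960, plus strand) answers light, hormones and cAMP as well as the clock. Its level was 3.89, 3.20, 2.37 and 3.70 FPKM in OGTBKO 1 to 4, against 6.15, 4.04, 5.69 and 10.04 FPKM in WT 1 to 4. The highest OGTBKO library lay just under the lowest WT library, and the means were 3.29 ± 0.680 FPKM in OGTBKO and 6.48 ± 2.54 FPKM in WT (SD, n = 4 each). The log2 change was -0.83 ± 0.24 (95% interval -1.38 to -0.29, adjusted p = 0.0480 by limma). This call was close to the threshold: it held when WT 2 was left out, and leaving out any of the other 7 libraries gave an adjusted p between 0.0596 and 0.130 by limma, with log2 changes between -0.91 and -0.61.

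Per2 had the most negative log2 change of the members and the largest coefficient of variation in WT, and did not pass the test. Per2 (ENSMUSG00000055866, chromosome 1, 91415982 to 91459324, minus strand) measured 1.18, 0.816, 0.931 and 0.859 FPKM in OGTBKO 1 to 4, against 1.26, 3.18, 1.73 and 6.75 FPKM in WT 1 to 4. No OGTBKO library reached the lowest WT library, although WT 1 lay close to OGTBKO 1, and WT 4 was 5.37 times WT 1. The fitted log2 change was -1.15 ± 0.38 (95% interval -2.01 to -0.29, adjusted p = 0.0700 by limma). An exact two-sided permutation test of Per2 alone gave p = 0.0286, the smallest that 4 against 4 libraries can give. Any gene without overlap gets this value (22.5% of all genes tested had none), so it adds nothing to the lack of overlap. Without WT 1 the log2 change was -1.44 (adjusted p = 0.0306 by limma), a fit in which 15.6% of all genes were called. Leaving out any other library gave an adjusted p between 0.060 and 0.157 by limma, and the log2 change was -0.76 without WT 4.

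Per3, the Period gene that the loop needs least in mice, ran low in WT 1 and high in the rest of WT. Per3 (ENSMUSG00000028957, chromosome 4, 151003652 to 151044665, minus strand) measured 2.998, 2.22, 1.79 and 1.89 FPKM in OGTBKO 1 to 4, against 1.599, 4.66, 3.83 and 4.41 FPKM in WT 1 to 4. WT 1 lay below every OGTBKO library, and the other WT libraries lay above all of them. The log2 change was -0.54 ± 0.28 (adjusted p = 0.216 by limma), and -0.83 without WT 1 (adjusted p = 0.0170 by limma). When any other library was left out, the adjusted p of Per3 lay between 0.167 and 0.422 by limma. The gene Camta1 covers all of Per3 on the same strand, so reads from introns of Camta1 could have been counted for Per3. Camta1 measured between 0.569 and 0.882 FPKM in OGTBKO and between 0.614 and 0.720 FPKM in WT.

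Neither cryptochrome passed the test. Cry1 (ENSMUSG00000020038, chromosome 10, 85131700 to 85185064, minus strand), the stronger repressor of CLOCK and ARNTL, measured 5.38, 6.84, 8.56 and 10.1 FPKM in OGTBKO 1 to 4, against 7.67, 3.68, 5.60 and 5.35 FPKM in WT 1 to 4. OGTBKO 3 and 4 were the highest libraries, and OGTBKO 1 lay among the WT values (log2 change 0.44 ± 0.23, 95% interval -0.08 to 0.96, adjusted p = 0.217 by limma). Cry2 (ENSMUSG00000068742, chromosome 2, 92403646 to 92434043, minus strand) measured 4.10, 3.38, 4.24 and 3.40 FPKM in OGTBKO 1 to 4, against 2.40, 4.33, 3.63 and 3.85 FPKM in WT 1 to 4. The Cry2 groups overlapped, with a log2 change of 0.10 ± 0.16 (95% interval -0.27 to 0.46, adjusted p = 0.723 by limma) that was -0.06 without WT 1.

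The REV-ERB receptors, a pair of repressors that normally cycle together, took different positions relative to each other in the groups. Nr1d1 (ENSMUSG00000020889, chromosome 11, 98767932 to 98775333, minus strand) measured 19.4, 17.6, 16.6 and 12.4 FPKM in OGTBKO 1 to 4, against 8.20, 19.9, 13.5 and 8.85 FPKM in WT 1 to 4. Nr1d2 (ENSMUSG00000021775, chromosome 14, 18204054 to 18239127, minus strand) measured 8.37, 7.70, 5.43 and 4.95 FPKM in OGTBKO 1 to 4, against 6.60, 17.6, 12.4 and 13.6 FPKM in WT 1 to 4. For both genes the groups overlapped, for Nr1d2 through WT 1 alone. This gave a log2 change of 0.44 ± 0.27 for Nr1d1 (95% interval -0.16 to 1.04, adjusted p = 0.280 by limma) and -0.83 ± 0.28 for Nr1d2 (95% interval -1.46 to -0.20, adjusted p = 0.0738 by limma), and neither passed the test. Nr1d2 passed without WT 1 (log2 change -1.09, adjusted p = 0.0154 by limma) and without the 3 libraries with muscle transcripts, where the change of Nr1d1 was -0.09. It did not pass when any other single library was left out (adjusted p between 0.0735 and 0.177 by limma for Nr1d2).

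In every OGTBKO library Nr1d1 was well above Nr1d2, while the 2 genes were near each other in WT 1, 2 and 3 and Nr1d1 was below Nr1d2 in WT 4. The FPKM of Nr1d1 divided by that of Nr1d2 was 2.31, 2.29, 3.06 and 2.50 in OGTBKO 1 to 4, against 1.24, 1.13, 1.09 and 0.651 in WT 1 to 4. The ratios did not overlap, and averaged 2.54 ± 0.357 in OGTBKO and 1.03 ± 0.261 in WT (SD, n = 4 each). This ratio was chosen after the values were seen and is given without a test. Of single genes tested 22.5% did not overlap, and the share of gene pairs whose ratio does not overlap was not counted. The genes differ in base composition, with 56.8% GC in Nr1d1 and 41.8% in Nr1d2. After removal of the GC and length trend, log2 Nr1d1 minus log2 Nr1d2 still did not overlap, at 1.08 ± 0.19 in OGTBKO and 0.19 ± 0.44 in WT, against 1.27 ± 0.18 in OGTBKO and 0.00 ± 0.40 in WT as deposited. The gene Thra lies on the opposite strand and shares 1075 of the 7402 bases of Nr1d1, and whether strand was used in counting is not known. Thra measured 21.2, 17.8, 15.5 and 20.5 FPKM in OGTBKO 1 to 4, against 13.3, 16.3, 19.3 and 13.8 FPKM in WT 1 to 4 (log2 change 0.25 ± 0.15, adjusted p = 0.265 by limma).

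Dbp, the D-box activator that CLOCK and ARNTL switch on and a common readout of the clock, did not pass the test and rests on few reads. Dbp (ENSMUSG00000059824, chromosome 7, 45705088 to 45710203, plus strand) measured 3.30, 1.99, 1.71 and 1.49 FPKM in OGTBKO 1 to 4, against 0.482, 2.03, 0.947 and 1.104 FPKM in WT 1 to 4. Only WT 2 reached the OGTBKO range. The reads behind these levels numbered 62 to 162 in OGTBKO libraries and 20 to 87 in WT libraries. The log2 change was 0.71 ± 0.30 (95% interval 0.05 to 1.38, adjusted p = 0.130 by limma). Sphk2 lies opposite and shares 737 of its 5116 bases, with 5.78, 3.36, 5.11 and 3.63 FPKM in OGTBKO 1 to 4, against 3.38, 3.85, 3.18 and 4.69 FPKM in WT 1 to 4.

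Tef and Hlf encode the close relatives of DBP that bind the same D-boxes, and their mean change had the opposite sign to that of Dbp. Tef measured 15.9, 11.3, 9.14 and 10.7 FPKM in OGTBKO 1 to 4, against 8.85, 21.4, 16.5 and 20.3 FPKM in WT 1 to 4 (log2 change -0.45 ± 0.27, adjusted p = 0.283 by limma). Hlf measured 4.58, 2.58, 1.83 and 2.31 FPKM in OGTBKO 1 to 4, against 2.69, 5.97, 6.45 and 6.25 FPKM in WT 1 to 4 (log2 change -0.81 ± 0.30, adjusted p = 0.0978 by limma). In both genes WT 1 lay among or below the OGTBKO libraries, and without it both passed (Tef -0.72, adjusted p = 0.0370, and Hlf -1.08, adjusted p = 0.0240, by limma). Hlf also passed without OGTBKO 1 (-1.03, adjusted p = 0.0460 by limma). No other fit that left out 1 library called Tef or Hlf. Dbp relative to Tef was 0.208, 0.177, 0.187 and 0.139 in OGTBKO 1 to 4, against 0.0545, 0.0948, 0.0573 and 0.0543 in WT 1 to 4. Dbp relative to Hlf was 0.720, 0.771, 0.933 and 0.644 in OGTBKO 1 to 4, against 0.179, 0.340, 0.147 and 0.176 in WT 1 to 4. Neither ratio overlapped between the groups, and neither did after removal of the GC and length trend. Both ratios were chosen after the values were seen and have no test. They share the few reads of Dbp, and the share of gene pairs that separate in this way was not counted.

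**Figure D2:**
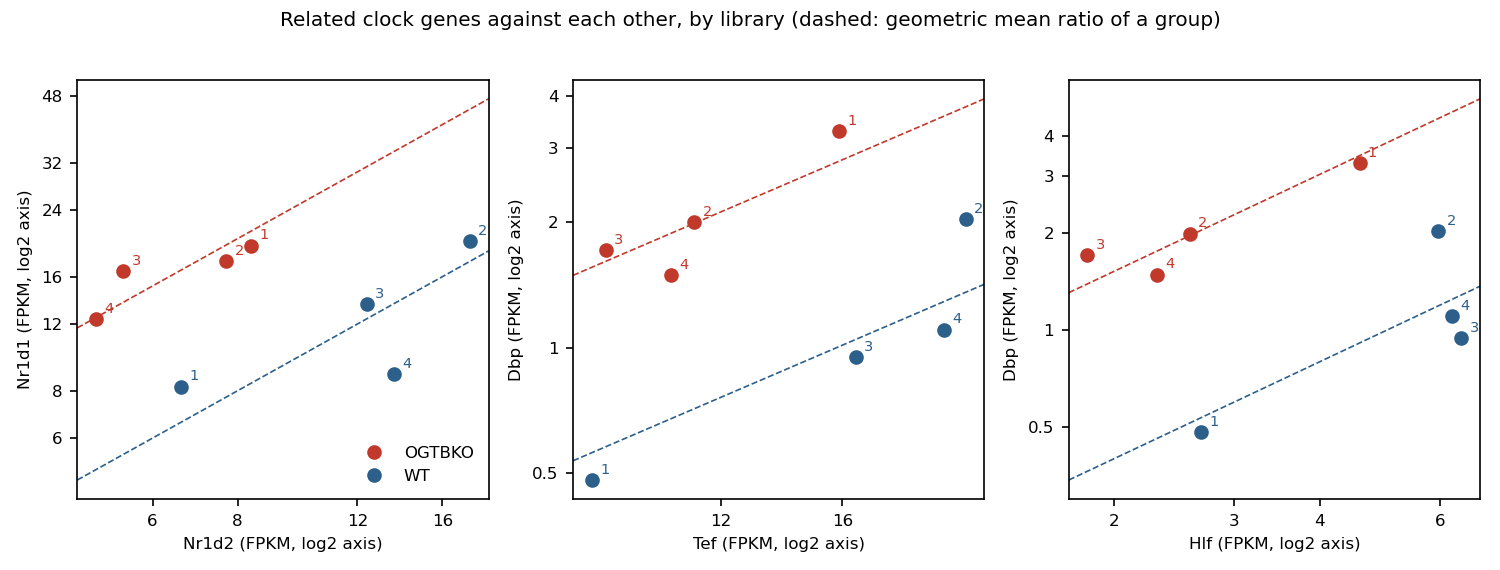
FPKM on log2 axes of Nr1d1 against Nr1d2 (left), Dbp against Tef (middle) and Dbp against Hlf (right), 1 point per library with its number, OGTBKO in red and WT in blue, and dashed lines at the geometric mean ratio of each group. In each panel the 4 OGTBKO points lie above the WT line, and WT 1 lies on the WT side although its levels of Nr1d2, Tef and Hlf are near those of OGTBKO.

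Nr1d1 had the highest level per gene length in both groups. In OGTBKO the order was Nr1d1 (16.5 FPKM), Cry1 (7.73), Clock (7.24), Nr1d2 (6.61), Cry2 (3.78), Per1 (3.29), Arntl (2.51), Per3 (2.23), Dbp (2.12) and Per2 (0.945). Neighbours in this order were apart without overlap between Nr1d1 and Cry1, between Nr1d2 and Cry2 and between Dbp and Per2. In WT the order was Nr1d1 (12.6 FPKM), Nr1d2 (12.5), Clock (10.7), Per1 (6.48), Cry1 (5.57), Per3 (3.62), Cry2 (3.55), Per2 (3.23), Arntl (2.07) and Dbp (1.14). There, Clock and Per1 were the sole neighbours without overlap.

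With all libraries included, levels of most clock genes varied more among WT than among OGTBKO libraries. The coefficient of variation was larger in WT for 9 of the 10 members, with Clock the exception, against 61.4% of all genes tested. For Per2 it was 17.0% in OGTBKO and 77.0% in WT, for Nr1d1 18.0% in OGTBKO and 42.8% in WT, and for Arntl 14.9% in OGTBKO and 34.9% in WT. Clock varied by 8.81% in OGTBKO and 2.73% in WT. WT 1 was most often at an end of its group: it was the highest WT library for Arntl and Cry1 and the lowest for Clock, Per2, Per3, Cry2, Nr1d1, Nr1d2 and Dbp, 9 of the 10 members, by a small margin for Clock and Nr1d1. WT 2 was at an end for 7 members, the highest for Per3, Cry2, Nr1d1, Nr1d2 and Dbp and the lowest for Per1 and Cry1. In OGTBKO, library 1 was the extreme for 8 members, the highest for the 3 Period genes, Nr1d1, Nr1d2 and Dbp and the lowest for Arntl and Cry1. WT 1 and OGTBKO 1, the 2 libraries with the most muscle transcripts, thus stood at opposite ends of their own groups for Arntl, Cry1, Per2, Per3, Nr1d1, Nr1d2 and Dbp. Whether muscle tissue had a part in these positions was not tested. With the muscle marker level as a covariate, Clock was the 1 member called, in a fit that called 14.3% of all genes. Without WT 1, 4 members were called (Clock, Per2, Per3 and Nr1d2), against 15.6% of all genes, and with libraries weighted by their quality (array weights) 5 were, in a fit that called 26.7% of all genes.

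**Figure D3:**
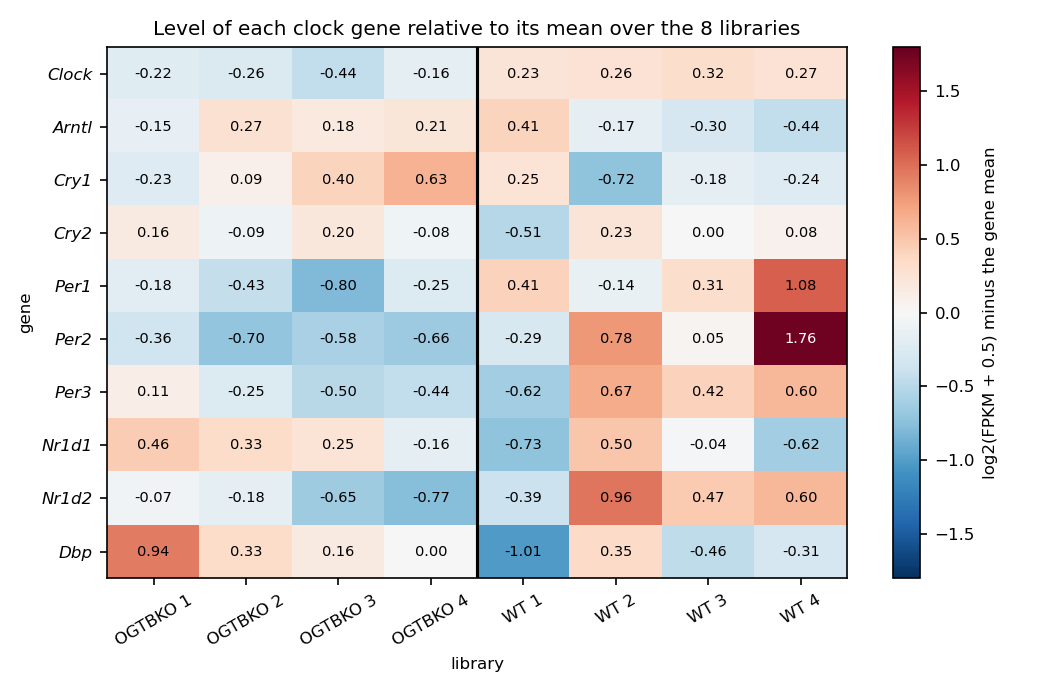
Level of each clock gene (rows) in each library (columns, OGTBKO left and WT right of the black line) as log2(FPKM + 0.5) minus the mean of that gene over the 8 libraries, from blue (lower) to red (higher). WT 1 shows Arntl and Cry1 above and the Per2, Per3, Nr1d1, Nr1d2 and Dbp rows below their means, and WT 2 shows the reverse.

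The level of Clock and Arntl relative to 6 genes that they drive did not separate the groups. The cryptochromes were left out of this measure. The mean log2 level of Clock and Arntl minus that of Per1, Per2, Per3, Nr1d1, Nr1d2 and Dbp was -0.20, 0.30, 0.36 and 0.55 in OGTBKO 1 to 4, against 0.90, -0.33, 0.02 and -0.47 in WT 1 to 4. WT 1 had the highest value of the 8 libraries and WT 4 the lowest, with every OGTBKO library between them. The means were 0.25 ± 0.32 in OGTBKO and 0.03 ± 0.61 in WT (SD, n = 4 each), a difference of 0.22 that was 0.51 without WT 1, 0.37 without OGTBKO 1, 0.10 without WT 2, 0.06 without WT 4, 0.12 without OGTBKO 4 and 0.48 after removal of the GC and length trend. Single pairs of genes overlapped as well, for Arntl and Per2 through WT 1 alone. Arntl minus Per2, on the log2 scale, was 0.55, 1.32, 1.11 and 1.22 in OGTBKO 1 to 4, against 1.05, -0.60, -0.00 and -1.85 in WT 1 to 4. Log2 Arntl minus log2 Nr1d1 lay between -3.01 and -2.02 in OGTBKO and between -3.07 and -1.26 in WT. Log2 Arntl minus log2 Dbp lay between -0.63 and 0.67 in OGTBKO and between -0.06 and 1.88 in WT.

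Arntl ran against Per3 across libraries, and no other relation of Arntl to a member passed. Over the 8 libraries, Arntl and Per3 had a Pearson r of -0.92 (exact permutation p = 0.00471, 0.0424 adjusted over the 9 members compared with Arntl) and a Spearman rho of -0.83 (exact permutation p = 0.0154, adjusted 0.138). The Pearson r was -0.88 without WT 1 and WT 4, the libraries farthest from the median of Arntl. Within groups, with each group centred on its mean, r was -0.91 (exact permutation p = 0.0451, adjusted 0.247), and -0.62 without WT 1. The adjusted call was lost when any of 6 libraries (each of the 4 OGTBKO libraries, WT 3 or WT 4) was left out. Arntl and Nr1d2 had r = -0.79 (exact permutation p = 0.0292, adjusted 0.0877), Arntl and Cry1 r = 0.71 (exact permutation p = 0.0520, adjusted 0.117), and Arntl and Cry2 r = -0.61 (exact permutation p = 0.0914, adjusted 0.165). With Nr1d1 the r of Arntl was -0.06 (exact permutation p = 0.870) and with Dbp -0.18 (exact permutation p = 0.679), with adjusted values of 0.870 and 0.764. For Clock, Per1 and Per2 the groups did not overlap, so no pooled value is given. Among 9981 protein-coding genes outside the lists with a mean of at least 1 FPKM, those most like Arntl over the 8 libraries were Rps3a1 (r = 0.97), Rps20 (0.94), Sf3b5 (0.93) and Unk (0.92), and those most like Dbp were Orai1 (0.96), Rcc1l (0.96), Inmt (0.93) and Flt4 (0.93). All these values come from the same 8 libraries and their scaling.

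**Figure D4:**
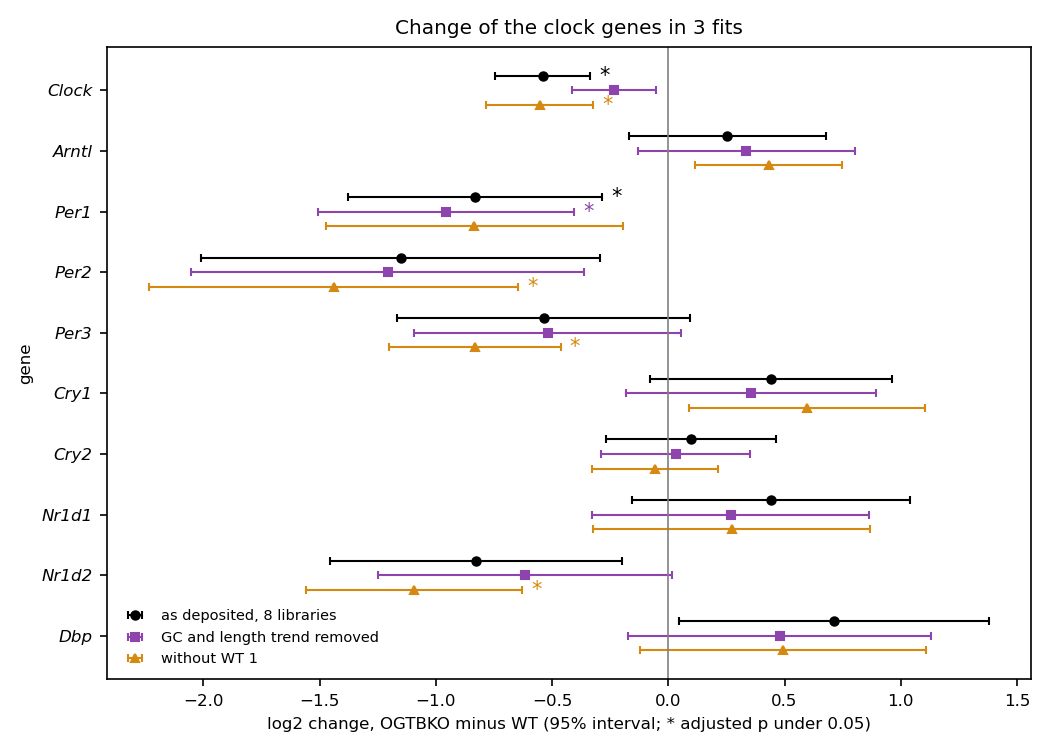
Log2 change (OGTBKO minus WT, horizontal axis) of each clock gene with its 95% interval in 3 fits: the values as deposited (black), after removal of the GC and length trend (purple) and without WT 1 (orange), with an asterisk at an adjusted p under 0.05. Clock moves towards 0 in the second fit (-0.23), and Per2, Per3 and Nr1d2 move away from it in the third.

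Beyond the 10 members, 35 further clock genes and common clock outputs were listed by role, of which 31 passed the filter. Of these 3 rose, 2 fell and 26 did not pass (16.1% called, against 15.6% of all genes), with a median log2 change of -0.11. The list was drawn up with earlier results of these data known. Rora, a nuclear receptor known to activate Arntl through ROR elements, measured 2.40, 2.02, 1.63 and 1.74 FPKM in OGTBKO 1 to 4, against 2.36, 3.37, 2.96 and 2.74 FPKM in WT 1 to 4 (log2 change -0.46 ± 0.14, adjusted p = 0.0517 by limma), and passed without WT 1 (adjusted p = 0.0382 by limma) or OGTBKO 1 (adjusted p = 0.0390 by limma). Rora passed in no other fit that left out 1 library. Its transcripts hold 40.9% GC, and after removal of the GC and length trend its log2 change was -0.15 (adjusted p = 0.471 by limma).

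The kinases and degradation factors that set the life of PER and CRY proteins gave 1 rise and 2 falls among 13 tested (23.1% called, against 15.6% of all genes). Csnk1e, a casein kinase that phosphorylates PER, lay between 3.66 and 4.18 FPKM in OGTBKO and between 2.68 and 2.82 FPKM in WT, with means of 3.99 ± 0.237 FPKM in OGTBKO and 2.73 ± 0.0653 FPKM in WT (SD, n = 4 each). It rose without overlap and with little spread (log2 change 0.48 ± 0.09, adjusted p = 0.0104 by limma), in each of the 8 fits that left out 1 library. Over all 21 alternative fits the call held in 18, with an adjusted p of up to 0.101 by limma. Transcripts of Csnk1e hold 56.4% GC, within the 3290 genes highest in GC, of which 13.9% were higher in OGTBKO and 1.98% lower. Usp2, a clock-driven deubiquitinase, measured 2.93, 2.37, 1.78 and 3.58 FPKM in OGTBKO 1 to 4, against 3.82, 5.19, 4.65 and 9.19 FPKM in WT 1 to 4. It fell (log2 change -0.94 ± 0.26, adjusted p = 0.0417 by limma), a call that held when WT 1 was left out and was lost when any other library was (adjusted p between 0.0525 and 0.113 by limma). Skp1a, a subunit of the ubiquitin ligases that degrade PER and CRY, averaged 82.3 ± 7.76 FPKM in OGTBKO and 115.1 ± 11.3 FPKM in WT (SD, n = 4 each). Its log2 change was -0.48 ± 0.12 (adjusted p = 0.0268 by limma), a fall without overlap, and the call was lost (adjusted p between 0.0509 and 0.0789 by limma) without WT 2, WT 4 or OGTBKO 2, 3 or 4.

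The remaining clock repressors and outputs gave 1 call. Leo1, a subunit of the PAF1 transcription complex, measured 3.12, 3.32, 3.68 and 3.94 FPKM in OGTBKO 1 to 4, against 2.37, 1.77, 1.40 and 2.30 FPKM in WT 1 to 4, and rose without overlap (log2 change 0.72 ± 0.15, adjusted p = 0.0162 by limma). This call was lost by a small margin without WT 2 (adjusted p = 0.0518 by limma) or OGTBKO 3 (adjusted p = 0.0549 by limma). Npas2, which can stand in for Clock, measured 0.801, 0.687, 0.697 and 0.735 FPKM in OGTBKO 1 to 4, against 2.73, 0.802, 0.256 and 0.409 FPKM in WT 1 to 4, so that WT 1 was far above the rest (log2 change -0.08 ± 0.40, adjusted p = 0.908 by limma, and 0.35 without WT 1). Bhlhe40 and Bhlhe41, which encode the DEC repressors of E-boxes, had log2 changes of 0.46 ± 0.37 (adjusted p = 0.421 by limma) and 0.43 ± 0.19 (adjusted p = 0.156 by limma). Nfil3, the repressor at D-boxes, had a log2 change of -0.14 ± 0.26 (adjusted p = 0.753 by limma). Ciart, a repressor of CLOCK and ARNTL with 3 E-boxes in its promoter, stayed under the filter at 0.215, 0.137, 0.344 and 0.286 FPKM in OGTBKO 1 to 4, against 0.319, 0.649, 0.668 and 0.839 FPKM in WT 1 to 4, where OGTBKO 3 overlapped WT 1. It was not tested.

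**Figure D5:**
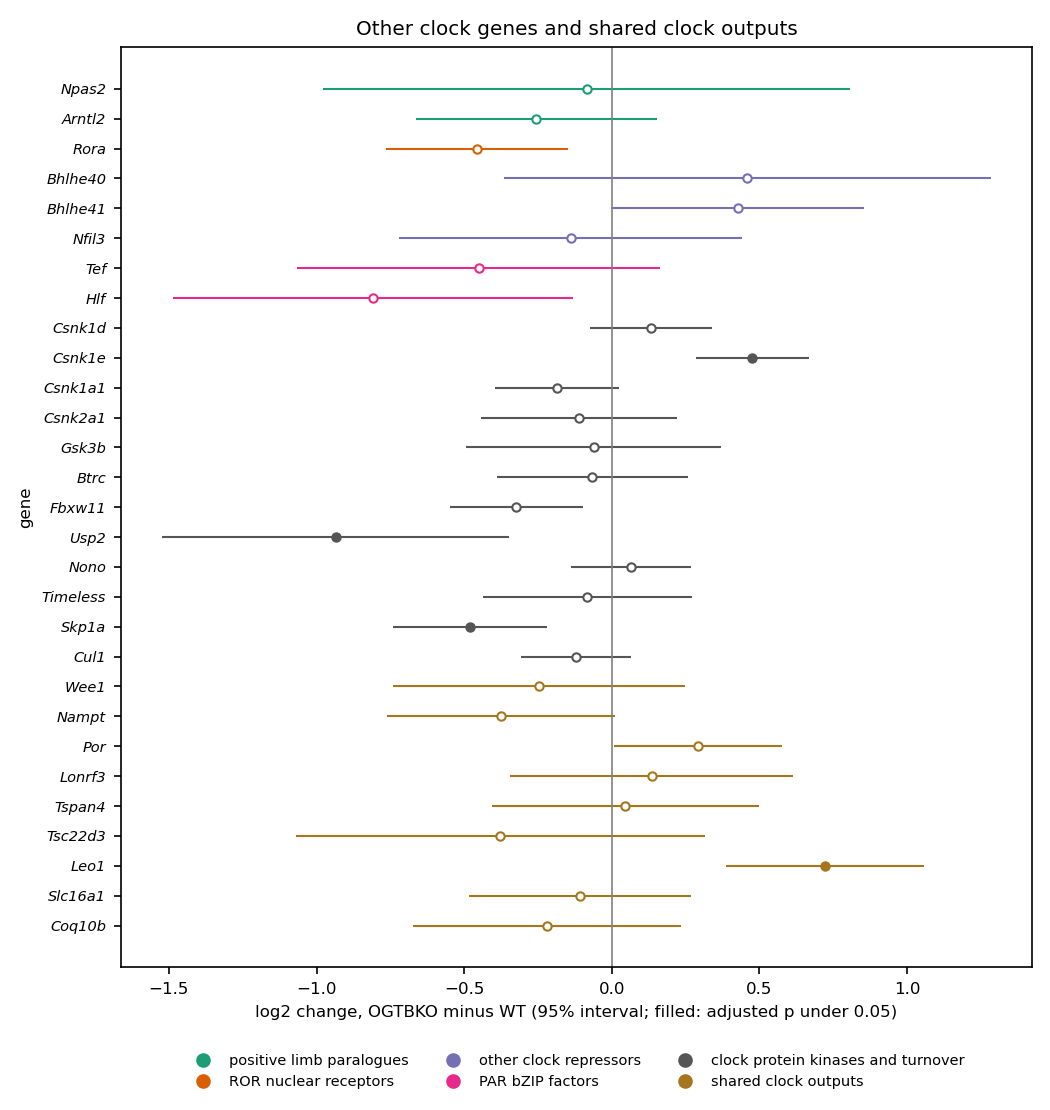
Log2 change (OGTBKO minus WT, horizontal axis) with its 95% interval of 29 of the 31 tested clock genes outside the 10 members, coloured by role, with filled points at an adjusted p under 0.05. Csnk1e and Leo1 are the filled points above 0, and Usp2 and Skp1a those below it.

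Signals from outside the loop also set Per1, Per2 and other members, and the targets of 3 such signals were counted beside the 15.6% of all genes called and their median change of -0.00. Of 11 genes that respond to glucocorticoids, all 11 had a negative log2 change (median -0.40) and 1 passed (9.09%), Per1 itself, which is counted among the members already. Zbtb16 and Fkbp5, 2 further targets of that receptor, had log2 changes of -1.38 ± 0.43 (adjusted p = 0.0574 by limma) and -0.89 ± 0.30 (adjusted p = 0.0764 by limma, and 0.0484 without WT 3). Fkbp5 measured 0.926, 0.610, 0.611 and 0.713 FPKM in OGTBKO 1 to 4, against 3.97, 1.35, 1.04 and 1.47 FPKM in WT 1 to 4, with WT 1 the highest here, whereas it was the lowest WT library for Per2. Of 11 tested genes driven by cAMP or early growth signals, 1 rose, Junb, and 1 fell, Nr4a3 (18.2% called). Junb, a subunit of AP-1, averaged 6.71 ± 1.70 FPKM in OGTBKO and 2.92 ± 0.875 FPKM in WT (SD, n = 4 each; log2 change 1.09 ± 0.23, adjusted p = 0.0178 by limma), and Nr4a3, a nuclear receptor of the same early response as Per1, averaged 0.570 ± 0.525 FPKM in OGTBKO and 2.15 ± 0.492 FPKM in WT (log2 change -1.40 ± 0.29, adjusted p = 0.0168 by limma). Of 10 genes that follow body temperature, 2 fell (20% called): Hsph1, a heat shock chaperone (log2 change -1.70 ± 0.18, adjusted p = 0.00236 by limma), and Hspa8, a chaperone (log2 change -0.58 ± 0.13, adjusted p = 0.0206 by limma). Single libraries decided some of these calls: Junb was at an adjusted p of 0.0585 without OGTBKO 3 and 0.0641 after removal of the GC and length trend, Nr4a3 at 0.0543 without WT 2 and 0.0558 without OGTBKO 3, and Hspa8 between 0.0514 and 0.0555 without OGTBKO 2, 3 or 4 (limma). Cirbp, which rises in the cold, was at 0.30 ± 0.11 (adjusted p = 0.0903 by limma). Whether these signals had a part in the levels of Per1 and Per2 was not tested.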

How the data were processed

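RNA from whole brown adipose tissue was sequenced from NEBNext Ultra libraries, per the labels' protocols. Reads were aligned and counted on mm10 with HISAT2 (2.0.5) and featureCounts (1.5.0-p3) of Subread, as named per the submitters' processing notes, with no word on strand. The authors deposited FPKM values for 54532 genes, all 8 value columns of which were used. Whole reads could be recovered for 100% of values (tolerance 0.001 of a read), and the FPKM denominators were 0.790 to 1.13 times the library totals, so values were already scaled between libraries. Values were analysed as log2(FPKM + 0.5) for the 13171 genes with a mean of at least 0.5 FPKM, and fold changes on that scale understate the change of low genes. The test of OGTBKO against WT was that of limma 3.58.1 under R 4.3.3 (moderated, two-sided with a mean-variance trend, no covariates, Benjamini-Hochberg over all genes kept), in steps tested on simulated data. Errors beside FPKM are SDs, and errors beside log2 changes are SEs. Correlations used exact permutation of pairings in scipy 1.17.1. A voom fit on the recovered reads, run as an alternative, called 2322 genes. Whether replicate numbers pair the samples is not known, and the main test did not pair them. Named were Ogt, the 10 members, the listed genes that passed or had the smallest p, a few further clock genes in any case, the genes most like Arntl and Dbp, and genes that overlap a member. The members, lists and rule were chosen with earlier results of these data known. No sequence of Per2 is printed here. Some results for further clock genes are not reported here, although the counts include them.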

Additional observations from a re-analysis of the deposited data

Results flagged for a closer look

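Hlf in WT 1 stood apart from the other WT libraries at 2.69 FPKM, against 5.97 to 6.45 FPKM in WT 2, 3 and 4, with a gap of 0.873 of the range of the group, above Dixon's critical value for 4 samples. It was the 1 flag among 46 groups of 4 libraries checked (the members and the named clock genes), and chance alone flags about 1 in 20 such groups.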

How the results depend on the processing

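The count of genes called (2050) moved to 1229 without a filter on low values, 3516 with array weights, 1229 with library totals as the denominator, 888 with a replicate block, 509 with that block and the GC and length trend removed, 938 without the 3 libraries with muscle transcripts (chosen after seeing the data), and 694 to 2115 when 1 library was left out. Of the members, 1 in place of 2 was called with a pseudocount of 1, without a filter, without the mean-variance trend, with library totals, with the GC and length trend removed, with the replicate block alone or with that correction, and with the muscle level as a covariate (chosen after seeing the data). That member was Per1 in the fits with the GC and length trend removed, and Clock in the others. Array weights gave 5 members, and leaving out 1 library 1 to 4. Of the other clock genes (5 called), 3 were called without a filter, with library totals and without the 3 libraries, 10 with array weights, 2 with the replicate block, 1 with block and GC correction, and 1 to 9 when 1 library was left out. The 1 relation of Arntl called became 0 with library totals and 0 to 2 when 1 library was left out, and the difference in the level of Clock and Arntl relative to 6 genes they drive ranged from 0.06 to 0.51. Log2 changes that reversed belonged to genes that did not pass: Cry2 (-0.023 with array weights, -0.056 without WT 1 within -0.056 to 0.19 when 1 library was left out, -0.10 without the 3 libraries), Nr1d1 (-0.093 without the 3), Npas2 (0.0075 with a pseudocount of 0.1, -0.35 to 0.35 when 1 library was left out with the highest without WT 1, 0.022 by voom, 0.28 without the 3), Bhlhe40 (-0.17 without the 3) and Nfil3 (0.044 with array weights, 0.28 without the 3). The cause was not tested. Of 21 alternatives, the call of Clock held in 18, of Per1 in 7, of Csnk1e and Leo1 in 18 each, of Skp1a in 12 and of Usp2 in 10. Same-numbered libraries of the groups had correlated deviations of 0.220, 0.169, 0.0143 and -0.00696 for numbers 1 to 4. The highest value for libraries of different numbers was 0.125 (OGTBKO 4 and WT 3). These values cannot settle whether the numbers pair the samples, because numbers 1 and 2 lie above that value and numbers 3 and 4 below it. Number 1 also joins the libraries with the highest muscle marker levels, and the part of muscle in its value was not tested. With the replicate block Clock was the 1 member called. Depth limits Dbp, with 20 reads in WT 1.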

Other observations

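Values for other cell types that brown fat can hold stand beside the clock genes as follows. Of 5 endothelial markers, 1 was higher and 0 lower in OGTBKO (20% called, near the 15.6% of all genes tested). This was Cdh5, whose call held in 1 of the 8 fits that left out 1 library. The sum of the 5 was 111.0 to 123.3 FPKM in OGTBKO and 88.2 to 119.4 FPKM in WT. None of 5 macrophage markers passed the test, with sums of 188.7 to 493.4 FPKM in OGTBKO and 135.1 to 281.1 FPKM in WT. Lymphocyte markers stayed between 0.321 and 1.06 FPKM in OGTBKO and between 0.317 and 0.673 FPKM in WT. Whether the cell makeup had a part in the levels of the clock genes was not tested.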
